A study of Oryza sativa Indica Group with 36 samples.

Results

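Leaves of a rice line that overexpresses OsPRR37 were compared at 8:00 and at 20:00, with 3 RNA-seq libraries at each hour, which are 6 of the 36 libraries of the series. The members are those 6 libraries, chosen by the sampling hour and line given in their labels, and all 35477 loci of the deposited files were considered, of which 21772 had enough counts to be tested. The overexpression line, called OE, was made in the indica cultivar Guangluai4, and its untransformed parent, called GL, was sampled at the same 6 hours with 3 libraries an hour. Both were 45-day seedlings under natural long days, and the uppermost fully expanded leaf was taken. The series' design text names a single overexpression line, OsPRR37-OE5, so an effect of the transgene cannot be told apart from an effect of that line. The promoter of the transgene is not given in the sources used here. The text calls the 3 libraries of an hour biological repeats but does not say whether they came from separate plants or pools.

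The plant circadian clock is a loop of transcriptional repressors that peak one after another through the day. LHY, a MYB factor, peaks around dawn, the pseudo-response regulators (PRRs) follow through the day, and GIGANTEA, PRR1 and the evening complex of LUX and ELF3 come late. OsPRR37 is one of the daytime PRRs and, in rice, a repressor of heading under long days. Light-harvesting and chlorophyll synthesis genes are known as morning genes in many plants.

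The targeted gene was checked first. OsPRR37 (OS07G0695100, chromosome 7, 29616564 to 29629218, build IRGSP-1.0) stood at 432, 320.4 and 346 FPKM in the OE libraries at 8:00. FPKM is the authors' fragment count relative to transcript length, on a scale between libraries that is not depth alone. At 20:00 the OE libraries stood at 287, 316 and 341 FPKM. The groups overlapped, and the fitted log2 change from 20:00 to 8:00 was 0.20 (SE 0.157, adjusted p = 0.287), so no difference between the hours was detected. SE, here and below, is the size of the log2 change divided by the square root of the test's F statistic. It was derived from the test and not estimated on its own. The parent stood at 83.7, 70.4 and 86.0 FPKM at 8:00 and at 31.4, 30 and 22.5 at 20:00, and every OE library at either hour lay above every parent library. The sequencing does not separate transcripts of the transgene from those of the native gene.

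Total counts were 12442615 to 13749865 in the 3 OE libraries at 8:00 and 12713185 to 15599219 at 20:00. The make-up of the libraries differed between the hours: the 10 most abundant genes took 9.41 to 12.94% of counts at 8:00 and 6.50 to 7.47% at 20:00. Scaling by TMM, the trimmed mean of M-values, gave factors of 0.657 to 0.793 at 8:00 and 1.26 to 1.33 at 20:00. With library totals alone the median log2 change of all genes tested was -0.90 in place of -0.09, so all changes below are relative to the TMM scale, and small rises at 8:00 can have the other sign on library totals. The authors' FPKM summed to 1397095 to 1633162 at 8:00 and to 753241 to 791442 at 20:00. Over called genes above 0 at both hours, the log2 change of mean FPKM lay a median of 0.08 from the fitted one. The printed FPKM are thus no separate check of the TMM scale. Replicate 1 stood somewhat apart at both hours: its log CPM correlated with the others at r = 0.955 to 0.961, and replicates 2 and 3 with each other at 0.975 and 0.978.

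Markers of the leaf and of other tissues were checked. The 4 light-harvesting genes with a tied name summed to 48395 to 71616 FPKM at 8:00 and to 1461 to 1936 at 20:00. The 5 Calvin cycle genes with a tied name summed to 61109.9 to 94797 and to 18262 to 25722, where the sum at 8:00 lacks OsRCA, listed at 0 at that hour. The meristem gene OSH1 was listed at 0 in all 6 libraries. The 9 cell division genes summed to 19.4 to 22.2 FPKM at 8:00 and 20.2 to 28.6 at 20:00, and the 3 secondary wall cellulose synthases to at most 6.86 in any library. The 3 senescence and chlorophyll breakdown genes summed to 102 to 107 FPKM at 8:00 and to 271 to 353 at 20:00. Most of the sum at 20:00 was NYC1, at up to 326 FPKM, while SGR was higher at 8:00. No listed defence gene had a tied name. In bulk leaf RNA, fewer cells of a type and less RNA per cell cannot be told apart.

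Morning and evening leaves of the line differed in a large part of the measured transcriptome. In the quasi-likelihood test of edgeR, with p-values adjusted over all 21772 genes, 11425 genes were called at an adjusted p under 0.05 (52.5%): 5384 were higher at 8:00 (24.7%) and 6041 were lower (27.7%). Of these, 7482 (34.4%) differed at least 2-fold. At 16-fold or more, 525 genes were higher at 8:00 (2.41%) and 264 were lower (1.21%). The libraries of the hours did not overlap for 13422 genes (61.6%). With library totals alone, 14801 genes were called, and 17.1% of them were higher at 8:00 in place of 47.1%. Because so many genes were called, a count of calls in a gene group says little by itself. Each count below is to be read against the 24.7% called higher and 27.7% called lower among all genes tested. For most lists the median log2 change is given with the count, against -0.09 for all genes tested. Named members are mostly those of smallest adjusted p and do not stand for their list.

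**Figure D1:**
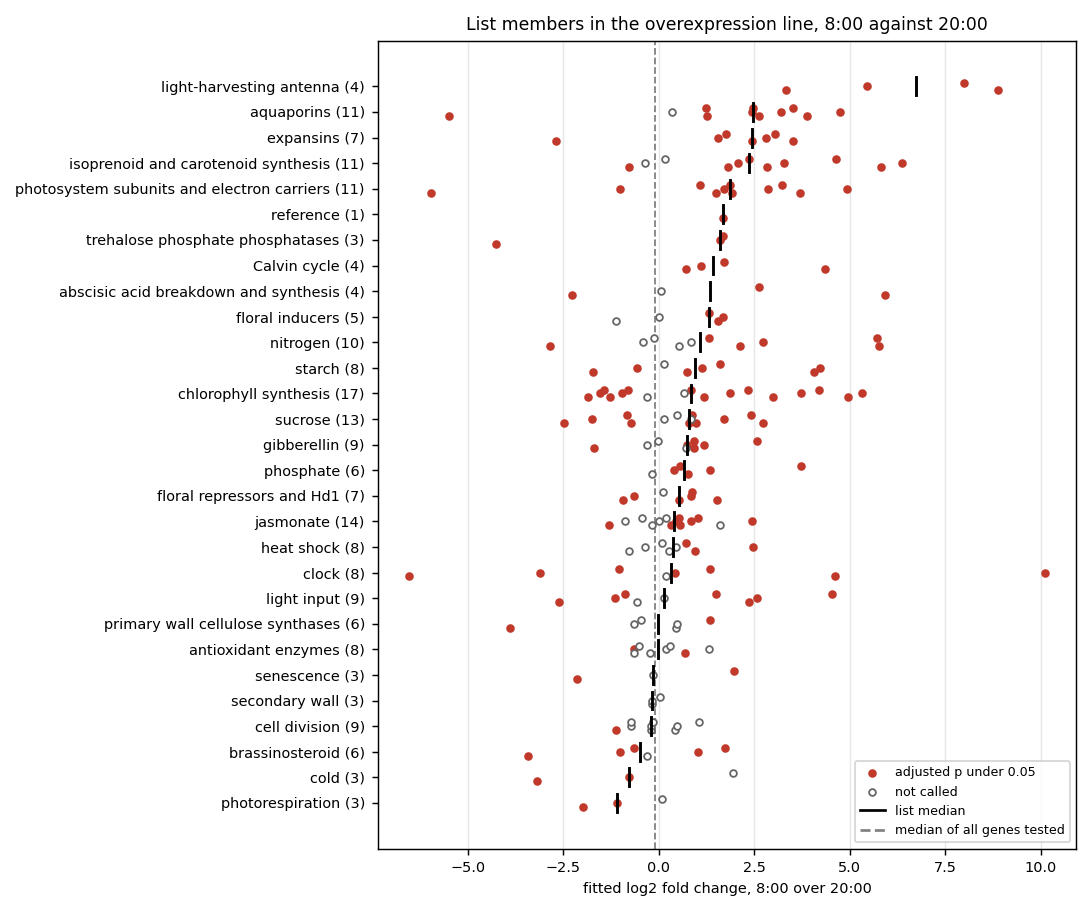
Fitted log2 fold change at 8:00 over 20:00 in the overexpression line for the tested members of each gene list (number of members in brackets), with called genes filled, uncalled genes open, a black bar at each list's median and a dashed line at the median of all genes tested (-0.09). OsRCA, listed at 0 at 8:00, is left out. The light-harvesting list has the highest median (6.73, 4 genes) and the photorespiration list the lowest (-1.09, 3 genes). The latter holds the catalases OsCATA and OsCATB, called lower, and OsGLO1, not called. Its other listed enzymes, among them the leaf catalase OsCATC, had no tied name, so its median does not describe the pathway.

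The clock genes ranged from OsLHY, far higher at 8:00, to OsLUX, far higher at 20:00. OsLHY, the dawn MYB factor (chromosome 8, 3360780 to 3373417), stood at 2801, 2384 and 2222 FPKM at 8:00 and at 3.15, 1.93 and 2.74 at 20:00, and the groups lay far apart. Its fitted log2 change was 10.10 (SE 0.419, adjusted p = 1.42e-17), a difference of 1096-fold. OsPRR95, a daytime pseudo-response regulator, was 24.6-fold higher at 8:00, with 46.6, 53.0 and 39.2 FPKM against 1.72, 2.29 and 1.88 (log2 change 4.62, SE 0.232, adjusted p = 7.32e-16). OsPRR73, the closest relative of OsPRR37 in rice, was 2.52-fold higher, at 291, 259 and 239 FPKM against 101, 90.6 and 88.0.

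OsLUX, OsGI and OsPRR1 were higher at 20:00. OsLUX, the MYB partner of ELF3 (chromosome 1, 42874582 to 42875298), was at 2.09, 2.51 and 3.38 FPKM at 8:00 and at 280.4, 228 and 207 at 20:00, and its fitted log2 change was -6.53 (SE 0.417, adjusted p = 1.34e-13). OsGI, the rice GIGANTEA, stood at 27.8, 31.4 and 27.1 FPKM against 257, 239.8 and 220.2 (log2 change -3.12, SE 0.202, adjusted p = 1.86e-13). OsPRR1, the rice TOC1, stood at 11.1, 13.8 and 10.2 FPKM against 24.6, 21.7 and 21.7 (log2 change -1.03, SE 0.138, adjusted p = 3.54e-07). None of these 3 genes had overlapping groups. OsELF3-1, the scaffold of the evening complex, differed little, at 75.9, 71.6 and 67.7 FPKM against 52.6, 48.9 and 48.5 (log2 change 0.43, adjusted p = 0.00566), and its sign turned with library totals alone (-0.38). In all, 4 of the 8 clock genes were called higher at 8:00, 3 lower and 1, OsPRR37, neither, against 3 higher and 5 lower with library totals alone. Their median log2 change was 0.32.

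The other 4 hours place the pair on the curve of each gene. OsLHY in OE averaged 19.9 FPKM at 0:00, 555 at 4:00, 2469 ± 299 (SD, n = 3) at 8:00, 170 at 12:00, 5.44 at 16:00 and 2.60 ± 0.62 at 20:00, so the comparison took its highest and lowest sampled hours. OsLUX averaged 797 ± 198 FPKM at 16:00, and 8:00 was its lowest hour. OsPRR95, OsPRR1, OsGI and OsPRR37 also had their highest mean at 16:00, where they stood at 284, 73.7, 348 and 479 FPKM, so 20:00 caught them on the way down. OsPRR73 was highest at 12:00 (404 ± 61.7 FPKM), and OsELF3-1 at 4:00 (86.4 ± 19.9). OsPRR37 in OE varied over the day between means of 263 at 4:00 and 479 at 16:00. Over all 212 tested list members, 82 had their highest OE mean at 8:00 and 17 at 20:00. The lists were chosen with earlier results of these data known, and the count was not made over all genes tested. It therefore describes the lists alone. Hours were ranked by mean FPKM, whose library sums were higher at 8:00 than at 20:00, so the count depends on that scale.

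**Figure D2:**
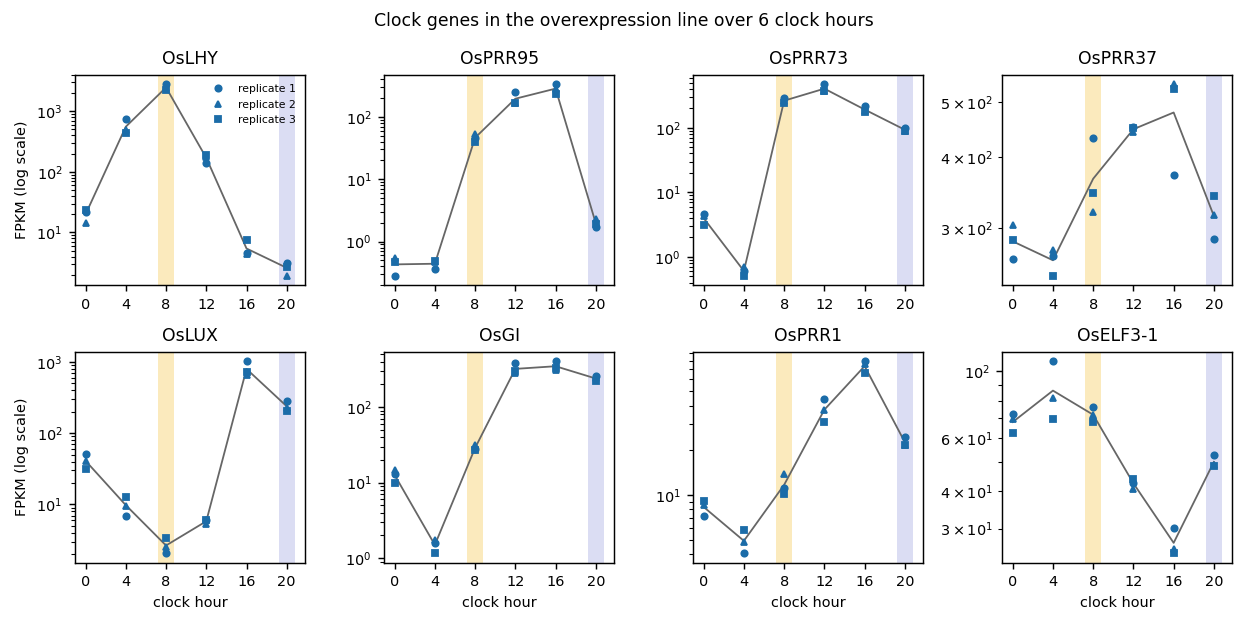
FPKM (log scale) of 8 clock genes in the overexpression line at 6 clock hours; points are the 3 libraries, the line joins their means, and the shaded bands mark 8:00 (yellow) and 20:00 (blue). OsLHY goes from a mean of 2469 at 8:00 to 2.60 at 20:00, OsLUX goes the other way, and OsPRR37 stays within a narrow range.

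Flowering genes were followed because OsPRR37 acts on heading date. Among the inducers, OsMADS18, an AP1/FUL-like MADS factor, rose to 59.7, 71.0 and 63.9 FPKM at 8:00 from 22.7, 20.0 and 21.9 at 20:00 (log2 change 1.54, SE 0.127, adjusted p = 2.88e-11). OsMADS50, a SOC1-like activator of flowering, stood at 157, 144 and 131 FPKM against 42.1, 42.4 and 41.7, which is 3.19-fold (adjusted p = 2.29e-08). Ehd2, a zinc finger activator, was scarce at 1.52, 1.48 and 1.59 FPKM against 0.917, 0.479 and 0.363 (log2 change 1.31, adjusted p = 0.0208). The Ehd2 call was lost when any of OE replicate 3 at 8:00 (adjusted p = 0.0528) or replicates 2 (0.0764) and 3 (0.105) at 20:00 was left out, with the OE libraries alone (0.064) and with library totals alone (0.329).

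The 2 floral identity genes of that list were nearly silent in the line at both hours. OsMADS14 was at 0.153, 1.31 and 0 FPKM at 8:00 and at 0.255, 1.58 and 0.652 at 20:00, with no call (adjusted p = 0.256), though the call was made, as lower at 8:00, without OE replicate 2 at 8:00 (adjusted p = 0.0464). The parent had 322, 455 and 560 FPKM at 8:00 and 171, 201 and 208 at 20:00. OsMADS15 was listed at 0 in all 6 OE libraries, and the parent had 1.35, 2.44 and 2.1 FPKM at 8:00. The inducers thus gave 3 genes called higher, 0 lower and 2 not called of 5 tested, against 2 higher and 1 lower with library totals alone. Their median log2 change was 1.31.

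Among the repressors and Hd1, 4 of 7 tested genes with a tied name were called higher at 8:00 and 2 lower, against 1 higher and 3 lower with library totals alone. The median log2 change of the 7 was 0.54. OsCOL10 and OsCOL4 of this list had no tied name and are given by identifier with the parent below. OsMADS55, an SVP-group MADS factor, stood at 52.7, 85.6 and 68.3 FPKM at 8:00 and at 21.1, 24.4 and 19.1 at 20:00 (log2 change 1.52, SE 0.259, adjusted p = 1.3e-05). Its relative OsMADS22 was 1.81-fold higher, at 135, 104 and 117 FPKM against 58.2, 61.4 and 65.2 (adjusted p = 4.7e-08). OsMADS56, a SOC1-like repressor under long days, was 1.78-fold higher, at 523, 428 and 463 FPKM against 282, 229 and 238 (adjusted p = 7.67e-06). With library totals alone the calls of OsMADS22 and OsMADS56 were lost (adjusted p = 0.823 and 0.951). OsMADS47 was called at a log2 change of 0.54 (adjusted p = 0.0411), a call that leaving out replicate 1 or 2 at 8:00, or any 1 library at 20:00, ended.

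DTH8, a nuclear factor Y subunit that delays heading under long days, was lower at 8:00, at 14.2, 13.8 and 14.6 FPKM against 19.7, 18.7 and 18 (log2 change -0.66, adjusted p = 0.00325), a call not made from FPKM (adjusted p = 0.0781). Hd1, the rice CONSTANS, was at 6.42, 3.73 and 3.40 FPKM at 8:00 and at 10.3, 7.99 and 5.95 at 20:00, and replicate 1 at 8:00 lay above replicate 3 at 20:00. On normalised counts the groups did not overlap, and the log2 change was -0.93 (SE 0.302, adjusted p = 0.0108), which was not called without replicate 3 at 8:00 (0.0642) or replicate 1 at 20:00 (0.0666). Hd16, a casein kinase I, was not called (log2 change 0.11, adjusted p = 0.378; -0.70 with library totals alone).

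Photosynthesis genes gave some of the widest differences. All 4 light-harvesting genes with a tied name rose, with a median log2 change of 6.73 against -0.09 for all genes tested. These 4 belong to photosystem II. Other listed antenna genes, among them all of photosystem I, had no tied name and were not analysed. Lhcb1.2, an antenna protein of photosystem II (chromosome 9, 10845836 to 10846633), stood at 11817, 9098 and 10326 FPKM at 8:00 and at 15.5, 23 and 24.3 at 20:00, a difference of 468-fold (log2 change 8.87, SE 0.487, adjusted p = 4.89e-15). Lhcb2 stood at 31682, 20379.7 and 24169 FPKM against 115, 73.2 and 85.7, or 255-fold. Lhcb1.1 was 44.1-fold higher (adjusted p = 3.36e-09), and Lhcb4, a minor antenna protein, stayed well expressed at 20:00 with 1648, 1268 and 1082 FPKM and was 10.1-fold higher at 8:00. Lhcb1.1 and Lhcb1.2 are close copies, and the counting could split reads between them.

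The photosystem and electron carrier list gave 9 higher and 2 lower of 11, with a median log2 change of 1.87, and 8 and 2 with library totals alone. OsGLK1 and OsGLK2, GOLDEN2-like factors that switch on photosynthesis genes, were 30.2-fold and 12.9-fold higher at 8:00. OsGLK2 stood at 447, 375 and 411 FPKM against 35.4, 27.2 and 30 (log2 change 3.69, SE 0.158, adjusted p = 2.7e-17). OsFd1, a leaf ferredoxin, stood at 22744, 16069.9 and 20314 FPKM against 2151, 3092 and 2339, or 7.33-fold. Among structural subunits, OsPSAH of photosystem I had a log2 change of 1.87 and OsPETC, the Rieske protein of the cytochrome complex, of 1.07.

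LIR1, a light-regulated gene whose product helps bind ferredoxin-NADP reductase to the thylakoid, went the other way. It stood at 314, 317 and 281 FPKM at 8:00 and at 18864, 17658 and 18026 at 20:00, a log2 change of -5.96 (SE 0.275, adjusted p = 1.19e-16), and the replicates of each hour were close together. OsLFNR1, a leaf ferredoxin-NADP reductase, was also lower at 8:00, at 895, 684 and 648 FPKM against 1507, 1479.9 and 1273 (log2 change -1.01, adjusted p = 0.000234). LIR1 in OE averaged 5314 FPKM at 0:00, 1271 at 4:00 and 12205 at 16:00, so 8:00 was its lowest and 20:00 its highest sampled hour.

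In the Calvin cycle, 4 of the 4 genes with values above 0 rose, with a median log2 change of 1.41, and with library totals alone 2 were called higher. OsALDP, the plastid aldolase, stood at 27064, 18772 and 19714 FPKM against 1356, 937 and 756, or 20.4-fold (log2 change 4.35, SE 0.368, adjusted p = 5.3e-11). The Rubisco small subunit genes OsRBCS2 and OsRBCS3 were already abundant at 20:00 and differed by 3.28-fold and 2.16-fold. They belong to a family of near-identical copies and their counts may share reads. The deposited OsRBCS3 locus is long (11262299 to 11321999) and may hold other genes, which was not tested. OsRCA, Rubisco activase, was listed at 0 counts in all 3 libraries at 8:00 and at 52070, 44292 and 39384 at 20:00. At 12:00 it had 214736 to 288963 counts, and at 4:00 it was listed at 0 in replicate 1 and at 301164 and 212030 in the others. It was the only locus listed at 0 in all 3 libraries of one hour with at least 1000 counts in each of the other, and no direction is given for it.

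Chlorophyll synthesis split within the pathway. Of 17 genes, 9 were called higher at 8:00, 6 lower and 2 not called, and 8 and 7 with library totals alone. The median log2 change was 0.83. OsHEMA1, glutamyl-tRNA reductase, which starts the pathway, stood at 792, 500 and 562 FPKM against 50.9, 100 and 66.6 (log2 change 3.00, adjusted p = 2.32e-09). OsCHLH, the large subunit of magnesium chelatase, stood at 2650.1, 1715 and 1868 FPKM against 62.8, 43.0 and 36.5, or 40.2-fold (log2 change 5.33, SE 0.428, adjusted p = 1.86e-11). OsCHLP, the reductase that makes the phytyl tail, was 30.6-fold higher, and OsHEMB, porphobilinogen synthase, 18.2-fold.

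The 2 smaller subunits of the same chelatase were not called. OsCHLI stood at 433, 258 and 264 FPKM against 223, 193 and 158 (log2 change 0.65, adjusted p = 0.0981), and OsCHLD had a log2 change of -0.30 (adjusted p = 0.393). Both protochlorophyllide reductases rose: OsPORB by a log2 change of 2.33, and OsPORA by 3.72, where replicate 3 at 8:00 (201 FPKM) lay above the others (74.0 and 80.8). The 6 lower genes lay between the ends of the pathway or at its last step: OsGSA, OsHEMC, OsUROD1, OsCPX, OsPPOX1 and OsCHLG. OsCPX, coproporphyrinogen oxidase, stood at 57.0, 73.3 and 71.5 FPKM against 259, 237 and 200.2 (log2 change -1.85, SE 0.229, adjusted p = 8.34e-08), and OsGSA at 182, 198 and 225 FPKM against 276, 238 and 252, where the log2 change on counts was -1.54 and that of the mean FPKM -0.34.

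The plastid MEP pathway and the carotenoid steps that follow gave 8 of 11 genes called higher, 1 lower and a median log2 change of 2.35, and 8 higher and 3 lower with library totals alone (2 lower with the replicate block). OsDXS, the entry enzyme, stood at 485, 223 and 286 FPKM against 6.50, 2.51 and 2.77, or 82.2-fold (log2 change 6.36, SE 0.484, adjusted p = 5.76e-12). OsISPH, the last enzyme of the MEP pathway, stood at 1588, 1321 and 1222 FPKM against 59.5, 51.3 and 47.9 (log2 change 4.63, SE 0.152, adjusted p = 1.44e-19). OsPSY2, a phytoene synthase, which commits precursors to carotenoids, was 56.0-fold higher, while its paralogue OsPSY1 was 4.22-fold higher. OsISPG, the step before OsISPH, was 9.78-fold higher. OsZEP1, zeaxanthin epoxidase, rose by a log2 change of 2.83. OsISPE was lower at 8:00 (log2 change -0.78, adjusted p = 7.71e-06), and OsISPD and OsPDS were not called (0.15 and -0.36).

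**Figure D3:**
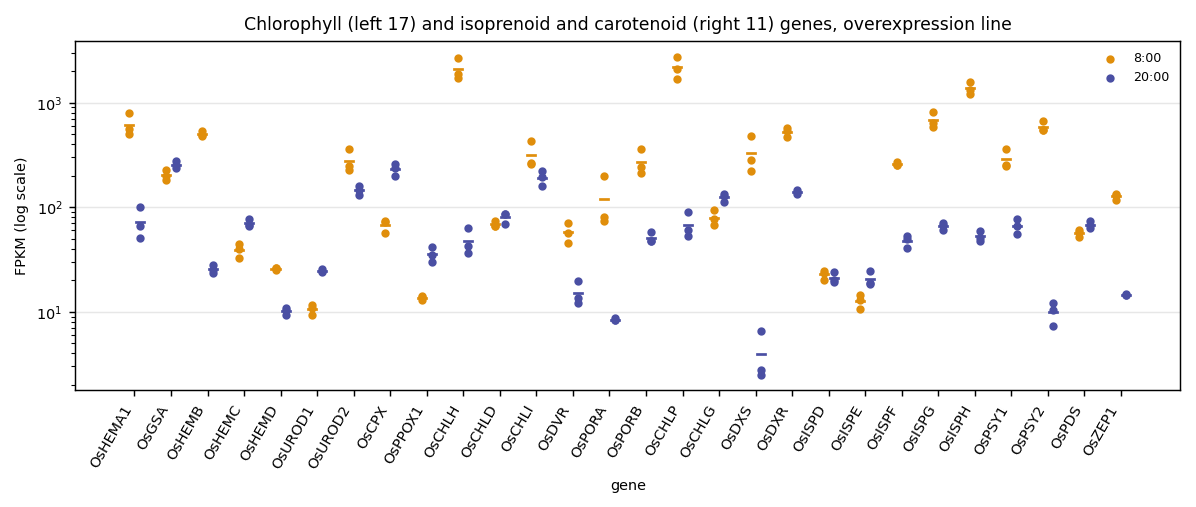
FPKM (log scale) of 17 chlorophyll genes and 11 isoprenoid and carotenoid genes in the overexpression line, with 3 libraries at 8:00 (orange) and 3 at 20:00 (blue) and a bar at each mean. The hours lie far apart for OsCHLH, OsCHLP, OsDXS and OsPSY2, are reversed for OsCPX, OsUROD1 and OsPPOX1, and overlap for OsCHLD and OsISPD.

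Chlorophyll breakdown genes did not move together. NYC1, a chlorophyll b reductase, was lower at 8:00, at 62.3, 54.8 and 58.0 FPKM against 246, 326 and 300.1 (log2 change -2.14, adjusted p = 3e-10). SGR, the stay-green protein that acts on chlorophyll, was higher, at 21.8, 27.5 and 27.5 against 5.75, 5.82 and 6.31 (log2 change 1.97, adjusted p = 8.53e-08). OsNOL, the partner of NYC1, was not called (adjusted p = 0.44), and its sign turned to 0.04 when FPKM was tested.

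The phytochromes OsPHYA, OsPHYB and OsPHYC were all lower at 8:00, OsPHYB most, at 12.9, 14.4 and 12.3 FPKM against 74.4, 81.1 and 66.1 (log2 change -2.62, SE 0.293, adjusted p = 1.32e-08). Se5, the heme oxygenase that makes the phytochrome chromophore, was 23.1-fold higher, at 1012, 772 and 805 FPKM against 41.3, 35.9 and 31.8. OsPHOT2, a blue light receptor for chloroplast movement, was 2.83-fold higher, while OsPHOT1A and OsPHOT1B of the same family were not called (log2 changes 0.13 and -0.56), and the (6-4) photolyase OsUVR3, which repairs ultraviolet damage, 5.09-fold. Of the 9 genes of light input and light repair, 4 were called higher, 3 lower and 2 not called, against 4 and 5 with library totals alone. Their median log2 change was 0.13.

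Among the 8 tested starch genes, 5 were higher and 2 lower, against 3 and 3 with library totals alone, and 1 lower when any 1 of 5 libraries was left out, OsDPE2 being near the threshold (adjusted p = 0.0486). Their median log2 change was 0.93. The starch synthases OsSSIIb and OsSSI were 18.5-fold and 16.5-fold higher at 8:00; OsSSI stood at 66.6, 75.2 and 72.4 FPKM against 4.51, 4.34 and 3.23 (log2 change 4.05, SE 0.317, adjusted p = 1.08e-11). OsISA1, an isoamylase that trims branches during starch synthesis, was lower, at 5.09, 5.67 and 5.70 FPKM against 20.2, 15.3 and 15.2 (log2 change -1.72, adjusted p = 8.11e-07). OsDPE1, a plastid disproportionating enzyme, was 3.00-fold higher.

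Of 13 tested genes of sucrose metabolism and transport, 6 were higher at 8:00 and 4 lower, against 3 and 5 with library totals alone. Their median log2 change was 0.79. OsSUS4, a sucrose synthase, was at 2.98, 5.07 and 5.43 FPKM against 20.2, 23.2 and 25.3 (log2 change -2.47, SE 0.192, adjusted p = 9.31e-12). The sugar carriers OsSWEET14 and OsSWEET16 were 5.34-fold and 6.63-fold higher, and the cell wall invertase OsCIN1 3.25-fold. OsTPP1, a trehalose phosphate phosphatase, stood at 0.700, 0.382 and 0.937 FPKM against 12.5, 13.7 and 8.82, or 19.1-fold lower at 8:00, whereas OsTPP7 was 3.01-fold higher and OsTPP2 3.21-fold higher, a call lost with library totals alone (adjusted p = 0.174).

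Nitrogen genes rose in 5 of 10 cases and fell in 1, against 4 and 3 with library totals alone. Their median log2 change was 1.08. Of all genes tested, 24.7% were called higher and 27.7% lower. OsAMT1;1, an ammonium transporter, stood at 364, 325 and 322 FPKM against 5.55, 6.08 and 6.23, or 54.2-fold (log2 change 5.76, SE 0.305, adjusted p = 2.24e-15). The cytosolic glutamine synthetases OsGS1;1 and OsGS1;2 were 6.68-fold and 4.38-fold higher. NADH-GOGAT2, a glutamate synthase, was lower, at 1.74, 2.31 and 1.68 FPKM against 10.9, 11.6 and 10.8 (log2 change -2.84, adjusted p = 6.13e-07). Phosphate genes gave 5 higher of 6, but 3 without replicate 1 at 8:00 or from replicates 2 and 3 alone, and 1 higher and 2 lower with library totals alone. Their median log2 change was 0.66. OsPHO1;2, a phosphate exporter, changed most, at 3.70, 2.79 and 3.47 FPKM against 0.346, 0.156 and 0.196. OsSPX2, a phosphate sensor, was 2.51-fold higher. The phosphate starvation regulators OsPHR2 and OsPHR1 were called at log2 changes of 0.55 and 0.41, which were -0.26 and -0.41 with library totals alone. The OsPHR1 call was also lost without replicate 1 at 8:00 (adjusted p = 0.095) or at 20:00 (0.0688), and from replicates 2 and 3 alone (0.09). The OsSPX2 call was lost with library totals alone (0.0924).

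Aquaporins, channels for water, were mostly higher at 8:00. Of 11 tested members, 9 were called higher and 1 lower, with a median log2 change of 2.47 (7 and 1 with library totals alone), and 3 more were too low to test. OsPIP2;2 stood at 335, 355 and 385 FPKM against 14, 11.1 and 9.23, or 26.6-fold (log2 change 4.73, SE 0.308, adjusted p = 2.03e-13). OsPIP1;1 was the most abundant at 8:00, at 1894, 1975 and 1929 FPKM against 221, 191 and 184, and OsPIP2;5 stood at 818, 955 and 970.2 against 159, 170.2 and 147. OsPIP2;7 went the other way, at 57.9, 30.5 and 38.0 FPKM against 1649.7, 1874 and 1887, or 45.3-fold lower (log2 change -5.50, SE 0.344, adjusted p = 8.62e-14). Neighbouring copies of this family are alike in sequence, and OsPIP2;4 and OsPIP2;5 lie side by side on chromosome 7. The deposited loci of OsPIP1;1 (26968023 to 27047158) and OsPIP2;5 (15369152 to 15409942) are long. Their values may not be those of the named gene alone, which was not tested.

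**Figure D4:**
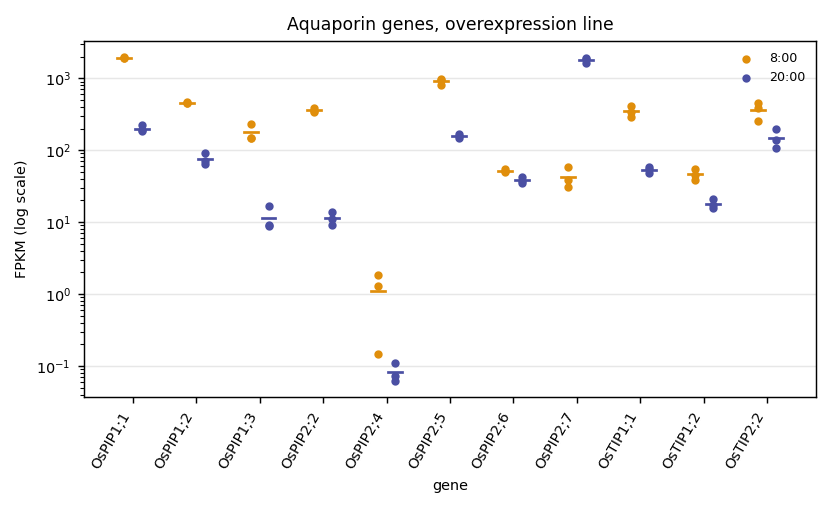
FPKM (log scale) of the 11 tested aquaporin genes in the overexpression line, 3 libraries at 8:00 (orange) and 3 at 20:00 (blue) with a bar at each mean. OsPIP2;7 is the only member whose blue points lie above its orange points, and OsPIP2;6 shows the smallest gap.

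Growth and wall genes were mixed. Of 7 tested expansins, proteins that loosen the cell wall, 6 were higher at 8:00 and 1 lower, against 4 and 1 with library totals alone. Their median log2 change was 2.44. OsEXPB6 stood at 29, 11.8 and 12.8 FPKM against 1.51, 1.84 and 1.04 (log2 change 3.52, SE 0.623, adjusted p = 2.33e-05), with replicate 1 the highest at 8:00, as it also was in OsEXPB3 and OsEXPA4. OsEXPA10 was lower, at 3.96, 1.70 and 3.78 FPKM against 30.3, 18 and 18.5 (log2 change -2.70, adjusted p = 1.77e-09). Of 6 primary wall cellulose synthases, OsCesA2 was lower at 8:00 (1.83, 0.495 and 1.31 FPKM against 17.1, 15.7 and 13.8), OsCesA8 was higher and 4 were not called, among them OsCesA5 (log2 change -0.65) and OsCesA6 (0.45; -0.37 with library totals alone). OsCesA5 was called lower with the replicate block (adjusted p = 0.0172), from FPKM (0.022 and 0.0242) and with library totals alone (0.000185), and OsCesA6 was called higher from FPKM (0.0208 and 0.0262). The OsCesA8 call was lost with library totals alone (0.175). The secondary wall synthases OsCesA4, OsCesA7 and OsCesA9 had log2 changes of -0.17, -0.18 and 0.03, with adjusted p of 0.867 to 0.982. Of 9 cell division genes, OsPCNA, the DNA polymerase clamp, was lower at 8:00 (log2 change -1.13, adjusted p = 8.1e-06) and 8 were not called, against 3 lower with library totals alone. Among these, the mitotic kinase OsCDKB1;1 had a log2 change of 0.47 (adjusted p = 0.0508), CYCB1;1 of 1.04 (0.118) and OsMCM5 of -0.72 (0.32). OsCDKB1;1 was called higher in several alternatives, among them DESeq2 (adjusted p = 0.035), the replicate block (0.0104), replicates 2 and 3 alone (0.00632) and without replicate 2 at 8:00 (0.0439) or replicate 1 at 20:00 (0.00466), and its log2 change was -0.34 with library totals alone.

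Hormone genes followed no common direction. In brassinosteroid synthesis, OsDWARF4, a rate-limiting hydroxylase, was lower at 8:00, at 1.40, 0.635 and 1.39 FPKM against 15.5, 11 and 10.7 (log2 change -3.43, SE 0.408, adjusted p = 3.87e-08), and D2 was lower by 1.01 on the log2 scale, whereas OsDWARF and the transcription factor OsBZR1 were higher, the OsDWARF call being lost with library totals alone (adjusted p = 0.389). Of the abscisic acid 8'-hydroxylases, which break the hormone down, OsABA8ox3 was 61.1-fold higher at 8:00 (8.76, 9.04 and 7.09 FPKM against 0.131, 0.182 and 0.0855, from 4 to 8 counts a library at 20:00) and OsABA8ox2 was 6.15-fold higher. OsABA8ox1 was called lower (log2 change -2.27, adjusted p = 0.00247), but its groups overlapped, at 6.43, 2.36 and 3.65 FPKM against 3.97, 22.8 and 22.7. Replicate 1 at 20:00 lay apart from the other two. OsNCED3, a synthesis gene, was at 0.243 to 0.771 FPKM in all 6 libraries and was not called (adjusted p = 0.923).

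The same library stood apart for OsDREB1A, a cold-responsive CBF factor, which was at 3.66, 2.50 and 7.07 FPKM at 8:00 and at 3.98, 67.5 and 44.2 at 20:00. With replicates 2 and 3 alone the log2 change of OsDREB1A was -3.65 in place of -3.19, and that of OsABA8ox1 -3.21 in place of -2.27. OsDREB2A, another stress factor, was lower at 8:00 (log2 change -0.77, adjusted p = 0.00637), a call lost without replicate 1 at 8:00 (0.0521), and OsDREB1G, at most 0.480 FPKM in any library, was not called. In jasmonate signalling, OsJAZ4, a repressor, was 5.42-fold higher at 8:00, at 238, 221 and 209 FPKM against 38.9, 37.5 and 39.6, OsCOI1a, the jasmonate receptor subunit, was 2.03-fold higher, OsJAZ1 was 1.78-fold higher, and OsAOS1, an allene oxide synthase, was lower (log2 change -1.30, adjusted p = 8.71e-05). Of 14 tested jasmonate genes, 7 were higher and 1 lower, against 1 higher and 5 lower with library totals alone and 4 higher with the OE libraries alone. Their median log2 change was 0.38. The calls of OsCOI1a and OsJAZ1 were lost with library totals alone (adjusted p = 0.186 and 0.908). For 9 gibberellin genes, with a median log2 change of 0.73, 5 were higher and 1 lower, against 1 and 3 with library totals alone. GID2, the F-box protein that removes the repressor SLR1, was 1.88-fold higher, and SLR1 itself was called at a log2 change of 0.73 (-0.10 with library totals alone, where the GID2 call was lost too, adjusted p = 0.566). The related oxidases CYP714B2 and CYP714B1 moved apart, the first 5.88-fold higher and the second 3.25-fold lower.

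OsHSP81-1, an HSP90 chaperone, was 5.53-fold higher at 8:00, at 88.3, 102 and 139 FPKM against 18.6, 17.6 and 18.2, and 5 of the 8 tested heat shock genes were not called. OsHSFA2C, a heat shock factor, rose by a log2 change of 0.94 and OsCLPB2, a disaggregase, by 0.70 (-0.12 with library totals alone). The OsHSFA2C call was lost with library totals alone (adjusted p = 0.494), and that of OsCLPB2 without replicate 3 at 20:00 (0.0547). OsHSP17.9A was not called (log2 change -0.77, adjusted p = 0.0508), but was called lower with the replicate block (0.0401), without replicate 2 at 20:00 (0.0292) and with library totals alone (0.000232). Of the 8 antioxidant genes, OsAPX4 was called higher (log2 change 0.69; -0.12 with library totals alone) and OsAPX1 lower (-0.64, adjusted p = 0.0325). The OsAPX1 call was lost without replicate 1 (adjusted p = 0.106) or 2 (0.0577) at 8:00, without replicate 2 (0.0938) or 3 (0.0891) at 20:00, with the OE libraries alone (0.0564), from FPKM (0.101 and 0.11) and with the authors' scaling (0.0564). OsAPX2 (log2 change 0.20; -0.60 with library totals alone) and OsSODCC1 (1.32) were not called. OsSODCC1, a superoxide dismutase, was called higher with the replicate block (adjusted p = 3.83e-07), from replicates 2 and 3 alone (3.39e-05), with only the libraries compared (0.00917) and with the OE libraries alone (0.023). The catalases OsCATA and OsCATB, placed in the photorespiration list, were lower at 8:00. OsCATA stood at 359, 394 and 581 FPKM against 2086, 1325 and 1549 (log2 change -1.98, adjusted p = 3.93e-06). The leaf catalase OsCATC of that list had no tied name and was not analysed. OsGLO1, glycolate oxidase, was not called (log2 change 0.09, and -0.73 with library totals alone). Its deposited locus is long (32521215 to 32632383) and may hold other genes, which was not tested. OsActin1, often used as a reference gene, was 3.21-fold higher at 8:00, at 77.6, 57.2 and 60 FPKM against 20.5, 18.7 and 18.2.

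Among loci outside the lists that were above 0 in all 6 libraries and averaged at least 1 log2 CPM, those with the widest changes are given by identifier, since the sources used here tie no name to them. OS03G0228200 (chromosome 3, 6776429 to 6778944) stood at 686, 565 and 598 FPKM at 8:00 and had 3 to 10 counts a library at 20:00, a log2 change of 11.13 (SE 0.474, adjusted p = 2.43e-17). OS01G0700100 had 1733 to 2519 counts a library at 8:00 and 2 in each at 20:00. On the evening side, OS04G0675400 (chromosome 4, 34489794 to 34492719) was at 0.801, 1.94 and 1.91 FPKM at 8:00 and had 13017 to 17073 counts a library at 20:00, a log2 change of -7.42. OS07G0529600 had a log2 change of -7.18.

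The parent was compared at the same hours to see where the line differed. In GL 11645 genes were called between 8:00 and 20:00 (53.5%), 5626 higher at 8:00 (25.8%) and 6019 lower (27.6%). The difference of the 2 changes, OE minus GL, was called for 31 genes (0.142%), 24 with a more positive change in OE (0.11%) and 7 with a more negative one (0.0322%). Both changes share no libraries. Of the 31, 24 were called in both genotypes, 3 in OE and not GL, and 4 in GL and not OE, and none was called in opposite directions. With replicates 2 and 3 alone the difference was called for 218 genes, and with the replicate block for 170. Among the 212 tested list members with a tied name, 4 had a called difference: OsPRR37, OsPRR1, Hd1 and OsGLK1. Loci whose identifiers the lists give as OsCOL10 and OsCOL4, CONSTANS-like genes without a tied name, were also called. For OS03G0711100 (OsCOL10) the log2 change was 5.97 in OE and 4.05 in GL, a difference of 1.92 (adjusted p = 0.00648). For OS02G0610500 (OsCOL4) it was 6.5 in OE and 4.81 in GL, a difference of 1.69 (adjusted p = 0.0331).

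OsPRR37 rose in the parent at 8:00 (log2 change 1.45, SE 0.161, adjusted p = 1.02e-08), and the change in OE minus that in GL was -1.24 (SE 0.223, adjusted p = 0.00827). OsPRR1 stood at 6.77, 4.06 and 6.32 FPKM in the parent at 8:00 and at 23.8, 26.3 and 28.2 at 20:00, while OE at 8:00 lay above the parent with 11.1, 13.8 and 10.2. Its change between the hours was smaller in OE: the log2 change was -1.03 in OE and -2.22 in GL, a difference of 1.2 (SE 0.198, adjusted p = 0.00459). Hd1 in the parent was at 1.70, 0.787 and 1.09 FPKM at 8:00 and at 15.9, 16.7 and 15.5 at 20:00, a log2 change of -3.73 against -0.93 in OE. The difference was 2.80 (SE 0.457, adjusted p = 0.00459), and OE was above all parent libraries at 8:00 and below all of them at 20:00.

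OsGLK1 differed the other way, with a wider change in OE. The parent stood at 431, 373 and 407 FPKM at 8:00 and at 27.9, 44.4 and 58.6 at 20:00, and OE at 355, 266 and 291 and at 7.89, 10.2 and 10.8. The difference of the log2 changes was 1.74 (SE 0.361, adjusted p = 0.0335), and it was not called when any 1 of 9 libraries was left out (adjusted p = 0.0509 to 0.114). With the 12 libraries of the 4 groups alone, the difference was not called for OsPRR1 (adjusted p = 0.0593), OsPRR37 (0.065) or OsGLK1 (0.0969). OsLHY had a difference of -0.33 (SE 0.422, adjusted p = 0.937) and OsGI of 0.00 (SE 0.264, adjusted p = 1.0), values that do not show the changes to be alike in both genotypes.

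**Figure D5:**
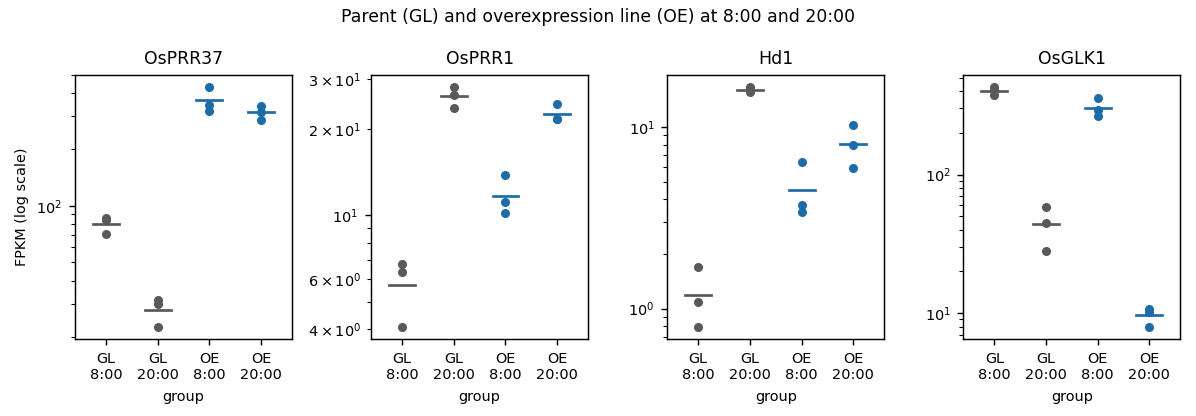
FPKM (log scale) at 8:00 and 20:00 in the parent (GL, grey) and the overexpression line (OE, blue) for the 4 list genes with a tied name and a called difference. Points are the 3 libraries of a group and bars their means. OsPRR37 in OE lies above GL at both hours, Hd1 drops from 20:00 to 8:00 far more in GL than in OE, and OsGLK1 at 20:00 is lower in OE.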

How the data were processed

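RNA-seq of rice leaves was deposited as 1 table per library. TopHat2, Cufflinks and Cuffdiff are named, without versions, in the submitters' processing notes, with build IRGSP-1.0. The count column deposited by the authors holds whole numbers that behave as estimated counts rounded up, and was used as deposited. FPKM values and a Normalized column, a scaled signal, were also deposited by the authors; the first are printed per library, the second served only as an alternative scaling. Per the labels' protocols, the library kit does not mark strand, so overlapping and antisense genes cannot be told apart. Long deposited loci may hold more than 1 gene, which was not tested.

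Genes were kept by filterByExpr on 12 groups and scaled by TMM. edgeR 4.0.16 in R 4.3.3 tested quasi-likelihood contrasts in 1 model of 12 group means over 36 libraries. P-values were Benjamini-Hochberg adjusted over 21772 genes with 0.05 as threshold, and measure the spread between the deposited libraries. Alternatives used DESeq2 1.42.0 and limma 3.58.1 on log2(FPKM + 1) and log2(FPKM + 0.1), and 25 other settings in all were run for each gene or count that they could give. The steps were tested on simulated data.

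Members and lists were chosen with earlier results of these data known. Of 334 list genes, 163 were added after the files were opened and before any contrast was computed. In the files were 320, and 245 were tied to a name in the RefSeq gene table of assembly ASM3414082v1, by name, chromosome and position shift. The shift had to lie within 150000 bases of that of a neighbouring list gene, a tolerance that OsGLO1 needs, or anywhere between the shifts of its neighbours. List genes that were not tied were left out, except where their locus is given by identifier. The naming rule took every tested clock and flowering gene, the 4 members of smallest adjusted p in each other list, called or not, list genes with a called difference between genotypes, and at most 2 loci without a name each way. While the analysis was under way the rule was narrowed, after values were seen, to called members of the other lists, which left out 15 gene results and most of the changes of sign; it was then put back as first written, and the results follow the original rule. Further list genes, mostly of the pigment pathways, are named beside those and were chosen after their values were seen. OsRCA was left out of the gene-level alternatives because of its zeros, and unnamed loci were limited to those above 0 in all 6 libraries, both decided after seeing the values. Sequences, product names and families by product text were not used here. A GL library at 0:00 has a genotype entry for the overexpression line and was kept in GL, as its title says. No replicates were merged: chi-square per degree of freedom between replicates of the 4 groups was 7.21 to 36.46.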

Additional observations from a re-analysis of the deposited data

Results flagged for a closer look

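The change between the hours differed between the overexpression line and its parent, by the test of the difference in the 12-group model, for the following genes, given as log2 change in OE minus that in GL. Among list genes with a tied name the difference was 1.2 for OsPRR1, 2.80 for Hd1, 1.74 for OsGLK1 and -1.24 for OsPRR37. Of loci without a tied name, OS09G0489200 (chromosome 9, 18863193 to 18867589) had 2.32 (adjusted p = 4.71e-05), with log2 changes of -2.82 in OE and -5.14 in GL. OS05G0179050 had 2.43 (adjusted p = 0.00115), from -0.30 in OE, where no change was called (adjusted p = 0.257), and -2.73 in GL. OS03G0197100 had -1.53 (adjusted p = 0.00271), with 2.37 in OE and 3.9 in GL, and OS06G0684000 had -0.92 (adjusted p = 0.0142), with -0.12 and 0.80.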

How the results depend on the processing

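The count of genes called between the hours in OE (11425) lay between 10271 and 14801 under all alternatives, from 10271 to 10760 when 1 library of the groups compared was left out, and that in GL (11645) between 10688 and 14673 (10688 to 10836). The OE count of 2-fold changes (7482) lay between 5863 and 10980 (6972 to 7418). Without GL replicate 3 at 0:00 these counts were 11362, 11598 and 7519. The count for the difference between genotypes (31) was 166 by DESeq2, 170 with the replicate block, 218 from replicates 2 and 3 alone, 58 by limma on log2(FPKM + 1), 66 with library totals alone, and 21 to 47 when 1 library was left out (47 without GL replicate 1 at 8:00); the cause was not tested. Library totals and the authors' scaling were added after the data were seen. Of 119 gene results, 76 kept direction and side of the threshold in every setting that gave them, of 25 settings in all. With library totals set aside, 95 did. Not every setting gave every result: the one without GL replicate 1 at 8:00 gave 4. With library totals, which shift the whole scale, the sign turned for 15: OsPRR37 (-0.62), OsELF3-1 (-0.38), Hd16 (-0.70), OsMADS47 (-0.27), OsNCED3 (-0.71), OsAPX4 (-0.12), OsAPX2 (-0.60), OsCDKB1;1 (-0.34), SLR1 (-0.10), OsCLPB2 (-0.12), OsPHR2 (-0.26), OsPHR1 (-0.41), OsGLO1 (-0.73), OsCesA6 (-0.37) and OsCesA9 (-0.82). Other sign changes were in genes not called: from replicates 2 and 3 alone OsPRR37 (-0.03) and OsCesA9 (-0.07); with the 18 OE libraries OsCesA9 (-0.01); with the replicate block OsCesA7 (0.02); by limma on either FPKM scale OsNOL (0.04); and with 1 library left out OsCesA9 (range -0.63 to 0.63), OsCesA7 (range -0.56 to 0.39), OsCesA4 (0.14 and 0.31) and OsNCED3 (-0.32 and -0.03). Same-numbered OE libraries of the hours deviated together at r = 0.359, 0.22 and 0.097, and GL ones at 0.22, 0.083 and 0.018. Replicate 1 deviated against the other numbers of the opposite hour, at r = -0.285 to -0.168 in OE and -0.2 to -0.064 in GL. Deviations were taken from the mean of the 3 libraries of an hour, so these negative values are tied to the positive ones and are no separate evidence. By the same-number values, replicate number carried shared structure, chiefly in replicate 1, which the main model leaves out. Not every OE library correlated best with its own number. The replicate block gave 12622 calls in OE. Where a gene has few counts a library at one hour, depth limits the precision of its fold.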
